A study of Mus musculus with 66 samples.

Results

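The miRNAs of the imprinted Dlk1-Dio3 domain were followed in mouse plasma. The members were chosen by name, as the rows of the C3H table whose miRNA number and letter belong to 1 of 50 hairpins of the domain, and no measured value enters that rule. All 50 hairpins had a row, and they gave 94 miRNAs of 1826 in the table, counting each arm of a hairpin as its own miRNA. Plasma was taken at necropsy from male C3H mice, 8 with hepatocellular carcinoma (HCC) and 5 without it (non-HCC). Both groups carry the label of more than 12 months after radiation. The paper counts 5 of the 8 tumours as spontaneous and the rest as radiation-induced, so the label cannot be read as irradiation of every mouse. It also reports higher plasma levels of its marker miRNAs in radiation-induced than in spontaneous HCC. The labels do not say which mouse had which kind, so the 8 HCC mice are 1 mixed group here. C3H is an inbred strain in which liver tumours also arise without irradiation. A second table holds 53 libraries of plasma drawn from the tail vein of F2 mice of both sexes that developed HCC, the second generation of a BALB/c by C3H cross, at 1, 6, 12 or 18 months after irradiation. These libraries come from 15 mice, each drawn more than once, so they are not separate animals. The columns of that table name neither the mouse nor the month, so it is described only by ranges over the libraries.

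The Dlk1-Dio3 domain is a parent-of-origin controlled region of mouse chromosome 12. Its protein-coding genes Dlk1, Rtl1 and Dio3 are transcribed from the paternal chromosome, and its long noncoding transcripts Meg3 (also called Gtl2), the Rtl1 antisense RNA, Rian and Mirg from the maternal chromosome. The miRNAs lie along these maternal transcripts. They are abundant in embryo, placenta and brain and low in adult liver, and they are known to be raised in a subset of liver tumours. A miRNA hairpin is cut into a 5p and a 3p arm, and bases 2 to 8 of each mature arm, the seed, largely set which messenger RNAs it pairs with.

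On GRCm38 the hairpins span 180104 bases, chr12:109563692-109743795. They fall into 3 stretches, named here by the transcripts beside them. The first, chr12:109563692-109595388, holds 12 hairpins along Meg3 and the Rtl1 antisense RNA and 23 miRNAs. In it miR-770 lies within an exon of Meg3, and 6 hairpins lie opposite the exon of Rtl1 (chr12:109589193-109600330, minus strand). The second, chr12:109611500-109618336, holds miR-341 and miR-370 within introns of Rian and 4 miRNAs. The third, chr12:109709060-109743795, holds 36 hairpins and 67 miRNAs from miR-379 to miR-410, and 12 of these hairpins lie within Mirg (chr12:109729764-109749460). The 28 remaining hairpins with a position lie within no long annotated gene. All 49 hairpins with a position are on the plus strand.

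RefSeq (GRCm38.p6) gave a mature sequence for 90 of the 94 miRNAs. The sequences of the miRNAs that differed between the groups are given with the seed in capitals, and after them miR-127-3p and miR-434-3p as the comparison from the first stretch.
mmu-miR-376b-3p: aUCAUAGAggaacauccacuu
mmu-miR-376a-3p: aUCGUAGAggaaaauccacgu
mmu-miR-377-3p: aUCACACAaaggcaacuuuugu
mmu-miR-409-3p: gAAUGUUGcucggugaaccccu
mmu-miR-410-5p: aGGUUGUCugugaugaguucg
mmu-miR-494-3p: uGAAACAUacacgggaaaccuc
mmu-miR-541-5p: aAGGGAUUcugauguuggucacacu
mmu-miR-134-5p: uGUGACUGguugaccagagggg
mmu-miR-485-3p: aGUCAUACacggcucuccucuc
mmu-miR-127-3p: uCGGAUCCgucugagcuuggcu
mmu-miR-434-3p: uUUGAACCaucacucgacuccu
The 90 sequences had 84 distinct seeds, so most members do not share one, and the lines above carry no seed in common. MiR-376b-3p and miR-376a-3p are both 21 bases long and differ at 3 positions, of which part lies within the seed. Shared seeds joined only pairs of members, among them miR-410-5p with miR-494-5p and the 5p arms of miR-376b and miR-376c, which differ at 1 of 22 positions. How the authors' counting assigned reads between such near-copies is not given in the sources used here, so levels of single miR-376 arms carry that uncertainty. MiR-376c-3p is given by name only.

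Molecules were counted by their unique molecular index (UMI), so amplified copies of a molecule count once. The HCC libraries held 9513136 to 14247488 miRNA UMIs and the non-HCC libraries 10467560 to 13962539. The table has no value from 1 to 9, so an entry of 0 stands for up to 9 UMIs, and 32.5% of the members' entries were 0. Synthetic spike-ins added before RNA isolation set the scale between libraries, as in the study's methods. HCC mice 2 and 5 had the lowest spike-in counts, 0.366 and 0.347 of the geometric mean over the mice, so every miRNA of these mice is scaled up on the spike-in scale. In 3 cases a pair of HCC libraries, mice 1 and 6, 2 and 5, and 3 and 7, were more alike than any other libraries. The SD of their log2 ratio over miRNAs with over 1000 UMIs was 0.137, 0.249 and 0.224, against 0.344 in the next closest pair. The labels name each as a separate mouse, so they were kept apart, and results are also given with each pair summed and without HCC mice 2 and 5. Their counts differed beyond counting noise (chi-square per degree of freedom 31.9, 58.3 and 63.7 over all miRNAs, and 5.84, 2.23 and 1.69 over the members), which separate libraries of 1 plasma could also do, and a shared source of these pairs was not tested.

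The domain's miRNAs were a small part of plasma miRNA. Their share is given in CPM, the UMIs for every 1000000 miRNA UMIs of a library. It was 291, 983, 540.9, 334, 982, 387, 549 and 322 CPM in HCC mice 1 to 8. In non-HCC mice 1 to 5 it was 315, 290, 232, 295 and 128 CPM. In 7 of the 8 HCC mice it was above every non-HCC mouse, and HCC mouse 1 lay within the range of the non-HCC mice. The mean share of the HCC mice, 549 ± 285 CPM (SD, n = 8), was 2.18 times that of the non-HCC mice, 252 ± 76.1 CPM (SD, n = 5), and the ratio was 1.60 without HCC mice 2 and 5. On the spike-in scale the groups overlapped more, with 5 of 8 HCC mice above every non-HCC mouse. There the ratio of the mean summed levels was 5.07, and 1.53 without HCC mice 2 and 5. The liver list (miR-101b-3p, miR-194-5p, miR-192-5p and both arms of miR-122) made up 41399 to 517820 CPM in HCC mice, against 9083 to 11532 CPM without HCC, and a CPM value falls as another miRNA takes more of a library. In plasma, more releasing cells and more release per cell cannot be told apart.

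**Figure D1:**
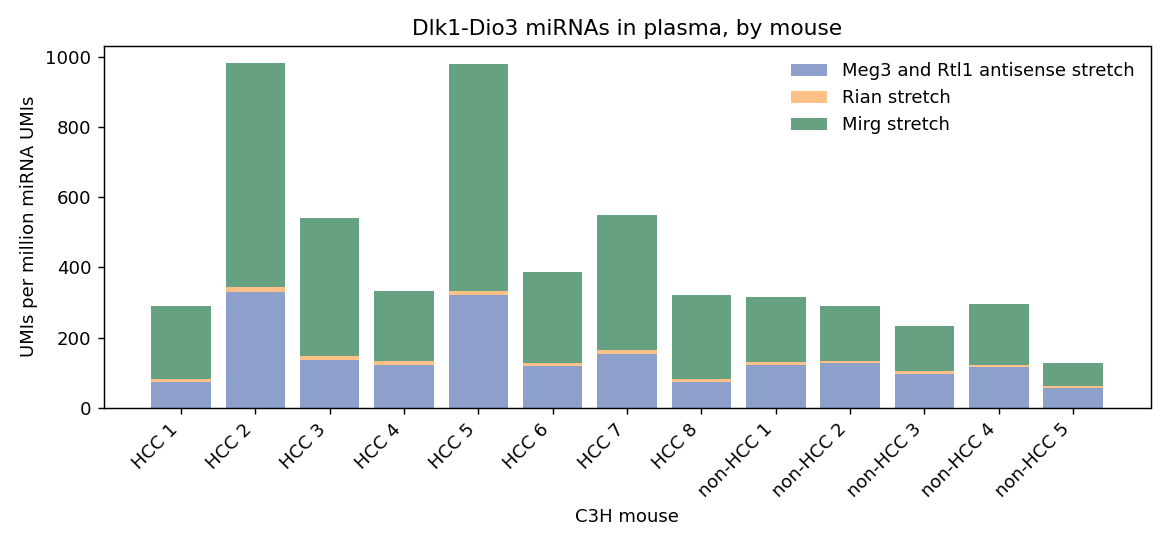
Summed Dlk1-Dio3 miRNAs in CPM (UMIs scaled to 1000000 miRNA UMIs a library) in each C3H mouse, stacked by stretch (13 mice, linear axis from 0). HCC mice 2 and 5 reach 983 and 982 CPM, and the Mirg stretch of each HCC mouse (201 or more) is above that of each non-HCC mouse (183 or less).

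The stretches were then summed apart. The Mirg stretch gave 201 to 649 CPM in HCC mice, against 66.8 to 183 CPM in non-HCC mice, with no overlap between the groups. The Meg3 and Rtl1 antisense stretch gave 71.6 to 331 CPM in HCC and 56.9 to 126 CPM in non-HCC mice, and 4 of 8 HCC mice were above every non-HCC mouse. Without HCC mice 2 and 5 the ratio of the group means was 2.00 for the Mirg stretch and 1.09 for the Meg3 and Rtl1 antisense stretch. The Rian stretch, the smallest, gave 6.46 to 11.9 CPM with HCC and 3.94 to 10.3 CPM without it.

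The share that the Mirg stretch takes of the domain's own UMIs needs no library scale. It was 72.3, 65.1, 72.8, 60.4, 66.1, 66.97, 70.3 and 75.1% in HCC mice 1 to 8 and 58.3, 54.04, 54.5, 58.7 and 52.4% in non-HCC mice 1 to 5. Every HCC mouse was above every non-HCC mouse. MiR-376b-3p alone made up 1.21 to 9.46% of the domain in HCC and 0.877 to 1.40% in non-HCC mice, with 7 of 8 HCC mice above. Between single miRNAs the contrast was wider. For each UMI of miR-127-3p there were 0.332 to 2.68 UMIs of miR-376b-3p in HCC and 0.0769 to 0.147 in non-HCC mice. The ratio of miR-541-5p to miR-127-3p was 1.48 to 8.50 in HCC and 0.629 to 0.954 in non-HCC mice. Both ratios were chosen after the values were seen and are given with no test.

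**Figure D2:**
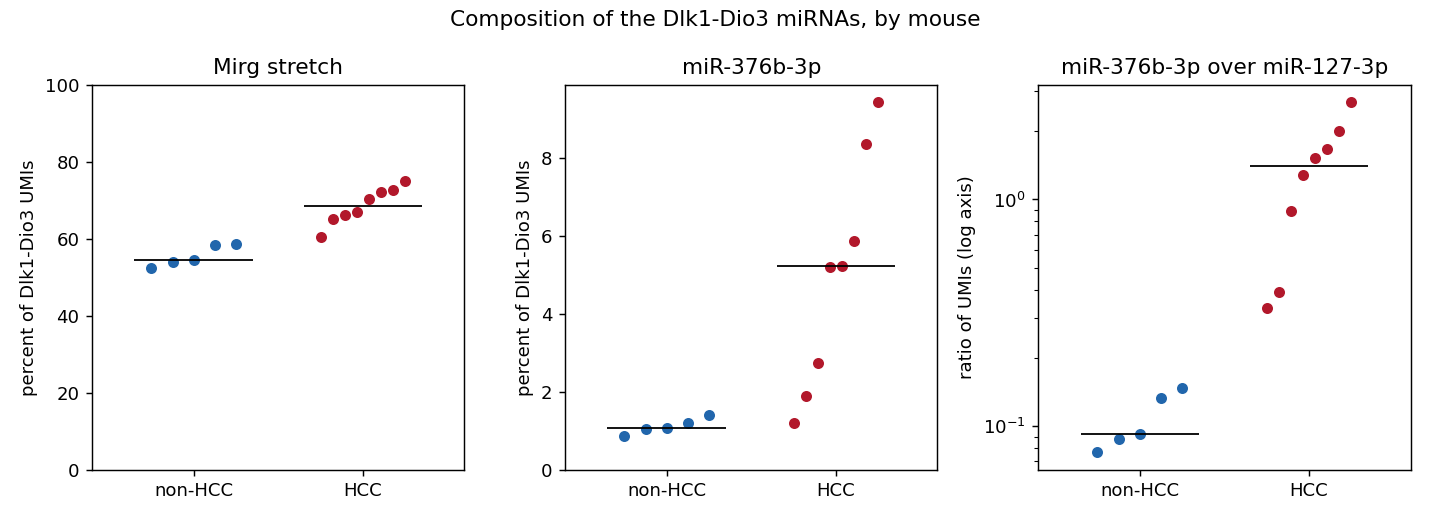
Composition of the Dlk1-Dio3 miRNAs in each C3H mouse (points; horizontal lines are medians): the Mirg stretch and miR-376b-3p in percent of all Dlk1-Dio3 UMIs (linear axes from 0), and the ratio of miR-376b-3p to miR-127-3p UMIs (log axis). The groups do not overlap in the Mirg share (60.4% or more against 58.7% or less) or in the ratio (0.332 or more against 0.147 or less).

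HCC and non-HCC mice were then compared miRNA by miRNA with edgeR's quasi-likelihood test on the UMI counts, with the mean of both spike-ins as the library scale and Benjamini-Hochberg adjustment over the 1452 miRNAs that reached 5 UMIs in 5 or more mice. Of the 94 members 71 entered the test and 23 did not, since they had UMIs in fewer than 5 mice. Of the 71, 10 were called higher in HCC mice at an adjusted p of 0.05, beside 7.51% of all miRNAs tested (109 of 1452). One of the 10, miR-377-3p, entered the test only through 5 HCC mice, with every non-HCC mouse at 0, so its call is not counted as support. Of the 70 members tested with UMIs in both groups 9 were called, beside 6.12% of all such miRNAs, and these 9 had UMIs in all 13 mice. In this edgeR fit 0 were called lower, 0 were lower at an unadjusted p under 0.05, and 0 were called lower by limma and DESeq2. Of all 1452 miRNAs, 0 were called lower by this edgeR fit or limma too, while edgeR called 32 lower by TMM. DESeq2 called 2 of all lower where the spike-ins set the scale, and 49 on size factors of its own. On the spike-in scale the lack of lower calls thus does not set the members apart. All 10 members called higher were from the Mirg stretch (10 of 49 tested, or 9 called members with miR-377-3p set aside). In the Meg3 and Rtl1 antisense stretch 0 of 19 and in the Rian stretch 0 of 3 passed. The former count depends on the setting, since 12 of 26 alternatives run with edgeR called 1 to 8 members of that stretch, among them miR-665-3p on the scale of total UMIs (edgeR adjusted p = 0.0384). DESeq2 with spike-in size factors called 3 of that stretch, beside 12.5% of all miRNAs. Of the 71 members 33 had an unadjusted edgeR p under 0.05, beside 19.5% of all.

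The median log2 fold change of the members tested was 1.89, and that of all miRNAs tested was 0.78 on the spike-in scale. With TMM scaling, which draws its factors from the miRNAs, the medians were 0.82 and 0.17, and with total UMIs 0.90 and 0.37. By stretch the median on the spike-in scale was 1.89 for the Meg3 and Rtl1 antisense, 1.11 for the Rian and 1.98 for the Mirg members. By TMM these medians were 0.86, 0.30 and 0.90. The Meg3 and Rtl1 antisense and the Mirg members thus had like medians, and the 3 Rian members a lower one. Without HCC mice 2 and 5 the median of the members fell to 0.58, beside 0.64 for all miRNAs, and 1 of 68 members was called, beside 3.37% of all. With similar pairs summed 7 of 69 members were called, beside 6.92% of all. By TMM 8 of 71 were called, beside 7.37% of all, and all 8 were among the 10 named above. MiR-377-3p was 1 of these 8, and its call is again not counted as support.

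**Figure D3:**
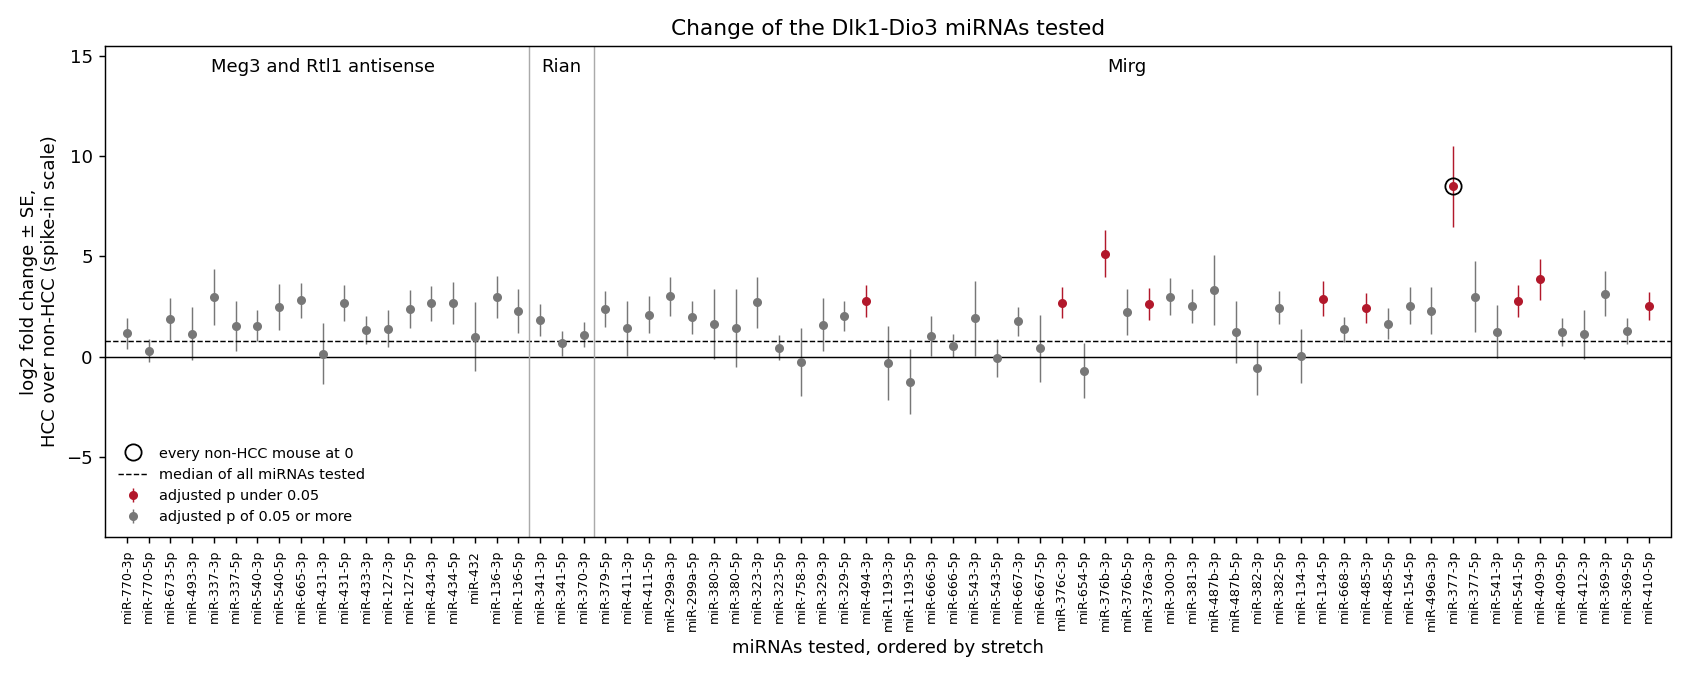
Log2 fold change of HCC over non-HCC mice on the spike-in scale, with its SE, for each of the 71 members tested, ordered by stretch. Red points have an edgeR adjusted p under 0.05 (10 members, all of the Mirg stretch). The dashed line is the median of all 1452 miRNAs tested (0.78). The ring marks miR-377-3p, whose fitted value has no fixed size because every non-HCC mouse was listed at 0. Its call is not counted as support.

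The miR-376 hairpins, a tight group whose primary transcripts are known targets of adenosine-to-inosine editing, held 3 of the 10. MiR-376b-3p (hairpin chr12:109723458-109723539) had the smallest p of all members in the main edgeR fit, though not by TMM or limma. It had 36, 48, 34, 35 and 19 UMIs in non-HCC mice 1 to 5 and 37 to 1298 in HCC mice, with a median of 244. HCC mice 2 and 5 were highest with 1171 and 1298 UMIs, mice 3 and 7 followed with 332 and 338, and only mouse 8, with 37, lay among the non-HCC mice. Its share was 33.9 ± 34.6 CPM (SD, n = 8) with HCC and 2.79 ± 0.867 CPM (SD, n = 5) without. On the spike-in scale the log2 fold change was 5.15 with an SE of 1.18 (edgeR adjusted p = 0.0116; exact two-sided permutation p = 0.0101), and 4.37 above the median of all miRNAs. It stayed past the threshold in all 30 alternatives that tested it (highest adjusted p 0.0429), of which the UniSP2 scale nearly repeats the main fit. The size did not hold as well. It was 3.80 with TMM, 4.85 with similar pairs summed, 2.18 with DESeq2 and spike-in size factors, and 2.27 with an SE of 0.54 without HCC mice 2 and 5 (edgeR adjusted p = 0.0303).

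MiR-376c-3p and miR-376a-3p had smaller fitted changes than miR-376b-3p in edgeR. With DESeq2 and spike-in size factors they were at 2.71 and 2.64, and miR-376b-3p was at 2.18. That value of miR-376b-3p lies near its edgeR value without HCC mice 2 and 5 (2.27). The order of these arms thus depended on the tool, so neither order is read as a result. The cause of the difference was not tested. MiR-376c-3p had 24, 34, 16, 31 and 18 UMIs in non-HCC mice and 44 to 153 in HCC mice, with no overlap and a median of 65. Its log2 fold change was 2.70 with an SE of 0.77 (edgeR adjusted p = 0.0331). MiR-376a-3p had 15 to 25 UMIs in non-HCC mice and 21 to 111 in HCC mice, and its log2 fold change was 2.63 with an SE of 0.80 (edgeR adjusted p = 0.0468). The ratio of miR-376b-3p to miR-376c-3p was 0.841 to 11.7 in HCC and 1.06 to 2.13 in non-HCC mice, so it varied widely within the HCC mice. The shares of these arms still ranked much alike over all C3H mice (Spearman rho 0.88). The ratio of miR-376c-3p to miR-376a-3p was 0.80 to 2.79 in HCC and 0.64 to 2 in non-HCC mice. The 5p arm of miR-376b, with 0 to 105 UMIs in HCC and 0 to 33 in non-HCC mice, did not pass (log2 fold change 2.23, SE 1.14, edgeR adjusted p = 0.294). The 5p arms of miR-376c and miR-376a had UMIs in too few mice to be tested.

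The other called members lie on both sides of the miR-376 group. MiR-409-3p had 45, 57, 47, 80 and 19 UMIs in non-HCC mice and 58 to 755 in HCC mice, with HCC mice 2 and 5 at 755 and 648. Its log2 fold change was 3.87 with an SE of 1.03 (edgeR adjusted p = 0.0224), and it was 2.51 by TMM, 1.34 by DESeq2 with spike-in size factors and 1.41 without these mice (edgeR adjusted p = 0.156). MiR-410-5p had 22, 37, 26, 18 and 22 UMIs in non-HCC mice and 37 or more in every HCC mouse. Here HCC mice 1 and 6 were highest (122 UMIs or more) and not mice 2 and 5 (91 and 74), and the log2 fold change of 2.51 (SE 0.69, edgeR adjusted p = 0.0277) kept a value of 1.97 without mice 2 and 5 (edgeR adjusted p = 0.0984). MiR-494-3p had 35, 25, 22, 35 and 19 UMIs in non-HCC mice and 45 to 167 in HCC mice, with no overlap. The log2 fold change was 2.78 with an SE of 0.78 (edgeR adjusted p = 0.0309), and 1.33 without HCC mice 2 and 5 (edgeR adjusted p = 0.154).

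MiR-541-5p took the highest mean part of the domain's UMIs over the 13 mice, 11.4%, although in non-HCC mice miR-127-3p was above it (mean 28.2 against 21.9 CPM). It had 371, 344, 152, 395 and 95 UMIs in non-HCC mice and 352 to 1620 in HCC mice. On the spike-in scale each HCC mouse was above each non-HCC mouse, and the log2 fold change was 2.79 with an SE of 0.80 (edgeR adjusted p = 0.0335, and 0.0504 with similar pairs summed). Without HCC mice 2 and 5 it was 1.24 (edgeR adjusted p = 0.163). MiR-134-5p, known in neurons as a regulator of dendritic spine size through Limk1, had 71, 62, 112, 103 and 31 UMIs in non-HCC mice and 77 to 505 with HCC. The log2 fold change was 2.90 with an SE of 0.86 (edgeR adjusted p = 0.0391), which was not past the threshold by TMM (1.70, adjusted p = 0.0632) or with similar pairs summed (2.63, adjusted p = 0.0565). MiR-485-3p had 16, 37, 33, 41 and 15 UMIs in non-HCC mice and 28 to 128 in HCC mice, with a log2 fold change of 2.43 (SE 0.74, edgeR adjusted p = 0.0465, and 0.0630 with similar pairs summed). MiR-377-3p was listed at 0 in all 5 non-HCC mice and in HCC mice 1, 4 and 6. It had 45, 30, 58, 20 and 14 UMIs in HCC mice 2, 3, 5, 7 and 8, just the 5 mice that the filter asks for. Its call (edgeR adjusted p = 0.0164) came with a filter met through the high group alone, and no fold is given because an entry of 0 can stand for up to 9 UMIs.

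Just inside the threshold stood miR-376a-3p and just outside it miR-665-3p of the Meg3 and Rtl1 antisense stretch (log2 fold change 2.81, SE 0.87, edgeR adjusted p = 0.0502) and miR-300-3p of the Mirg stretch (3.00, SE 0.94, adjusted p = 0.0538). MiR-665-3p passed when similar pairs were summed (2.59, adjusted p = 0.0416). On the spike-in scale leaving out HCC mice 2 and 5 ended the edgeR call of 8 of the 10 called members, all but miR-376b-3p and miR-377-3p, and the latter then had UMIs in too few mice to be tested. With the same mice left out and TMM, 4 members were called higher, miR-376b-3p, miR-376c-3p, miR-410-5p and miR-494-3p (edgeR adjusted p = 0.0227, 0.0135, 0.0222 and 0.0309), beside 7.03% of all. The edgeR calls rest on the model of the counts. By the exact permutation of log2 levels on the spike-in scale 15 members had an unadjusted p under 0.05, beside 13.3% of all miRNAs, and 0 of the 71 members and 0 of all 1452 miRNAs passed after adjustment. On the scale of total UMIs 6 members passed the adjusted exact test, miR-494-3p, miR-376c-3p, miR-410-5p, miR-485-3p, miR-329-5p and miR-369-3p, beside 6.40% of all.

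Groups that did not overlap were counted for each scale. On the spike-in scale every HCC mouse was above every non-HCC mouse in 3 members, miR-494-3p, miR-376c-3p and miR-541-5p, beside 1.52% of all miRNAs tested. On the scale of total UMIs this held for 6 members, miR-494-3p, miR-376c-3p, miR-376b-3p, miR-409-3p, miR-410-5p and miR-329-5p, beside 4.41% of all. By TMM it held for 2 of the 71 members, miR-494-3p and miR-376c-3p, beside 3.72% of all. In 0 members was every HCC mouse below every non-HCC mouse on the spike-in, TMM or total UMI scale, beside 0, 2 and 2.07% of all miRNAs.

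**Figure D4:**
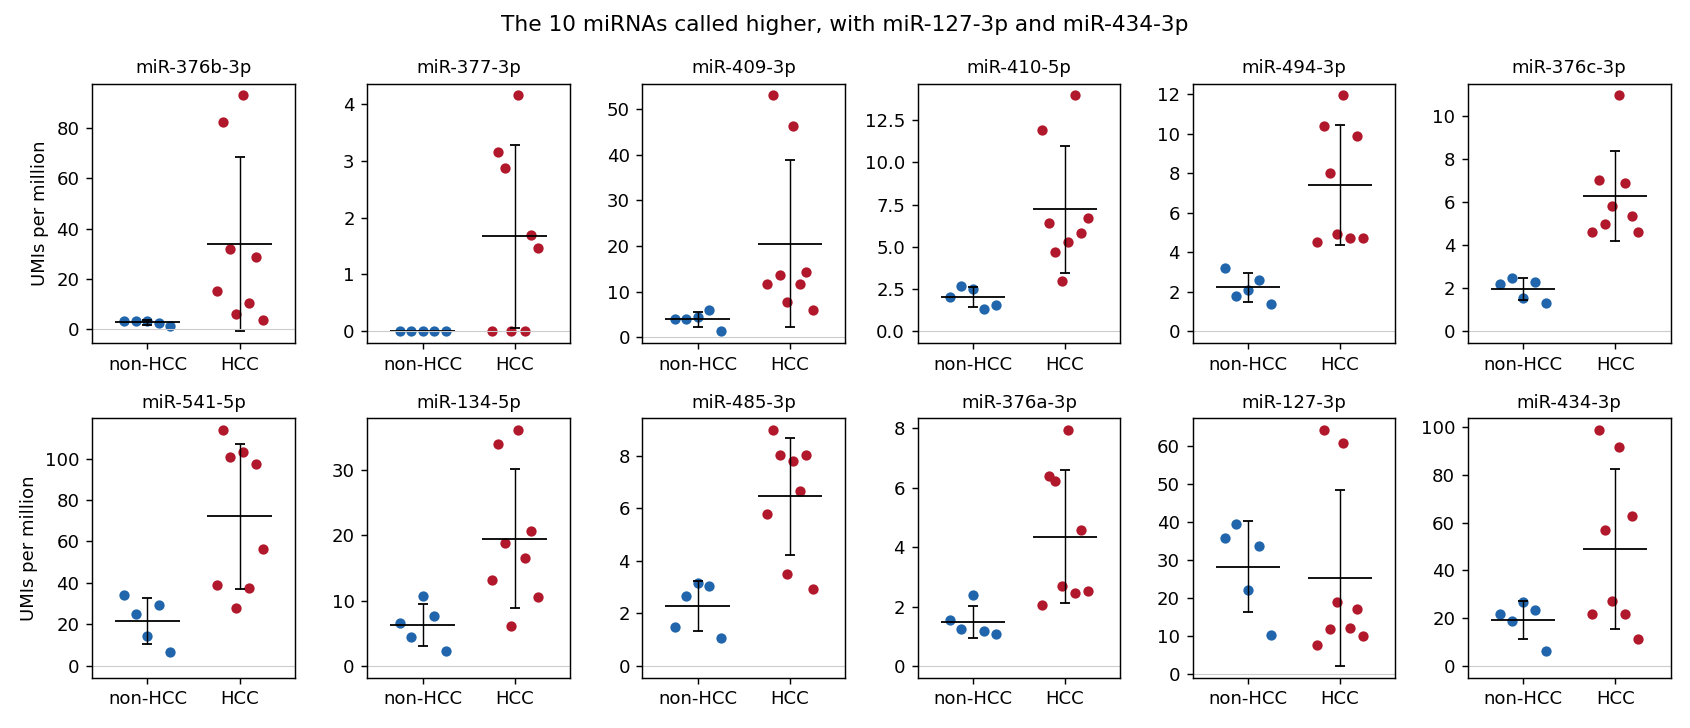
CPM of miRNA UMIs in each non-HCC (blue, n = 5) and HCC (red, n = 8) mouse for the 10 members called higher, and for miR-127-3p and miR-434-3p (linear axes; horizontal lines are means and bars are SD). MiR-494-3p, miR-376c-3p, miR-376b-3p, miR-409-3p and miR-410-5p do not overlap between the groups on this scale, and in miR-127-3p only HCC mice 2 and 5 lie above the non-HCC mice.

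In the Meg3 and Rtl1 antisense stretch the miRNAs are transcribed against Rtl1, a retrotransposon-derived gene needed in the placenta, and several of them are known to cleave the Rtl1 messenger RNA. MiR-127-3p had 389, 547, 231, 455 and 143 UMIs in non-HCC mice and 78 to 915 in HCC mice. HCC mice 2 and 5 had 915 and 849 UMIs, while the other 6 HCC mice had 78 to 238, below 3 of the 5 non-HCC mice. Its log2 fold change of 1.40 (SE 0.91, edgeR adjusted p = 0.459) did not pass, was 0.00 by TMM and turned to -1.03 without HCC mice 2 and 5 (edgeR adjusted p = 0.341). With TMM and without these mice miR-127-3p was called lower in HCC mice (-1.34, SE 0.34, edgeR adjusted p = 0.0244).

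MiR-434-3p, also opposite Rtl1, had 236, 258, 282, 316 and 88 UMIs in non-HCC mice and 107 to 1407 in HCC mice (log2 fold change 2.66, SE 0.89, edgeR adjusted p = 0.0695). Its 5p arm was at 43 to 152 UMIs in non-HCC mice and at 638 or more in HCC mice 2 and 5, with 27 to 86 in the other HCC mice. The same pattern of 2 high mice was seen in miR-136-3p, with 290 and 355 UMIs in HCC mice 2 and 5, 10 to 63 in the other HCC mice, against 13 to 54 in non-HCC mice. MiR-431-5p gave a log2 fold change of 2.68 (SE 0.92) and miR-433-3p of 1.31 (SE 0.70), with edgeR adjusted p of 0.0771 and 0.318. MiR-770-5p, from the exon of Meg3, was level across the mice. It had 114 to 237 UMIs in HCC and 170 to 229 in non-HCC mice, and its log2 fold change of 0.31 (SE 0.56, edgeR adjusted p = 0.889) was -0.26 by TMM.

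In the Rian stretch miR-370-3p had 21 to 37 UMIs in HCC and 14 to 31 in non-HCC mice, and miR-341-3p 17 to 116 and 10 to 58. They did not pass (log2 fold change 1.11, SE 0.63 and 1.83, SE 0.80, with edgeR adjusted p of 0.365 and 0.201). At the start of the Mirg stretch miR-379-5p, the first hairpin of its long cluster, had 90 to 331 UMIs in non-HCC mice and 112 to 914 in HCC mice (log2 fold change 2.38, SE 0.89, edgeR adjusted p = 0.114). MiR-411-5p next to it had 18 to 101 and 23 to 215 UMIs (2.10, SE 0.94, adjusted p = 0.213). MiR-382-5p, with a mean of 7.85% of the domain's UMIs, had a median of 232 UMIs in non-HCC mice, with a lowest value of 86, and 220 to 1163 in HCC mice (2.45, SE 0.82, edgeR adjusted p = 0.0708). Of the 49 Mirg members tested, 43 had a fitted log2 fold change above 0 on the spike-in scale, beside 80.9% of all miRNAs, and 41 by TMM, beside 58.1% of all.

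The arms of 1 hairpin come from the same precursor, and their ratio needs no library scale. The log2 ratio of the 5p to the 3p arm was tested by exact two-sided permutation in every hairpin of the table with at least 10 UMIs of both arms in each mouse. Of the domain, 6 hairpins entered and 2 passed an adjusted p of 0.05, beside 21.1% of all hairpins tested (34 of 161). For miR-127 the log2 ratio was -2.50 ± 0.39 (SD, n = 8) in HCC and -3.61 ± 0.57 (SD, n = 5) in non-HCC mice, so the rarer 5p arm took a larger part in HCC mice (adjusted exact permutation p = 0.0208). The groups overlapped, since non-HCC mouse 5, at -2.71, was above HCC mice 2, 6 and 7. For miR-409 it was -2.59 ± 0.91 (SD, n = 8) and -0.85 ± 0.68 (SD, n = 5), so the 3p arm took a larger part in HCC mice (adjusted exact permutation p = 0.0278). The miR-409 ratio was -1.36 or less in every HCC mouse and -1.43 to 0.20 in non-HCC mice, so these groups overlapped too. MiR-485, miR-434, miR-341 and miR-770 did not pass (adjusted exact permutation p = 0.173 to 0.728). With similar pairs summed to 5 libraries a group, the differences were 1.15 and -1.55 and neither passed (adjusted exact permutation p = 0.0881 and 0.106), where 0 of all 161 hairpins did and the smallest unadjusted p is 0.00794.

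Members tended to rise and fall together across the mice. Over the 38 members with UMIs in every mouse, the median Spearman rho of log2 shares was 0.50 over 703 pairs, and 548 of the pairs were positive. Within the Mirg stretch the median was 0.65, within the Meg3 and Rtl1 antisense stretch 0.48, and between these stretches 0.42. The highest value was 0.98. Apart from the block stood miR-770-3p, miR-770-5p, miR-341-5p, miR-323-5p and miR-666-5p, whose rho with most other members was near or below 0. These values are descriptions over 13 mice in which the groups, the similar libraries and the shared total of a library all enter.

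**Figure D5:**
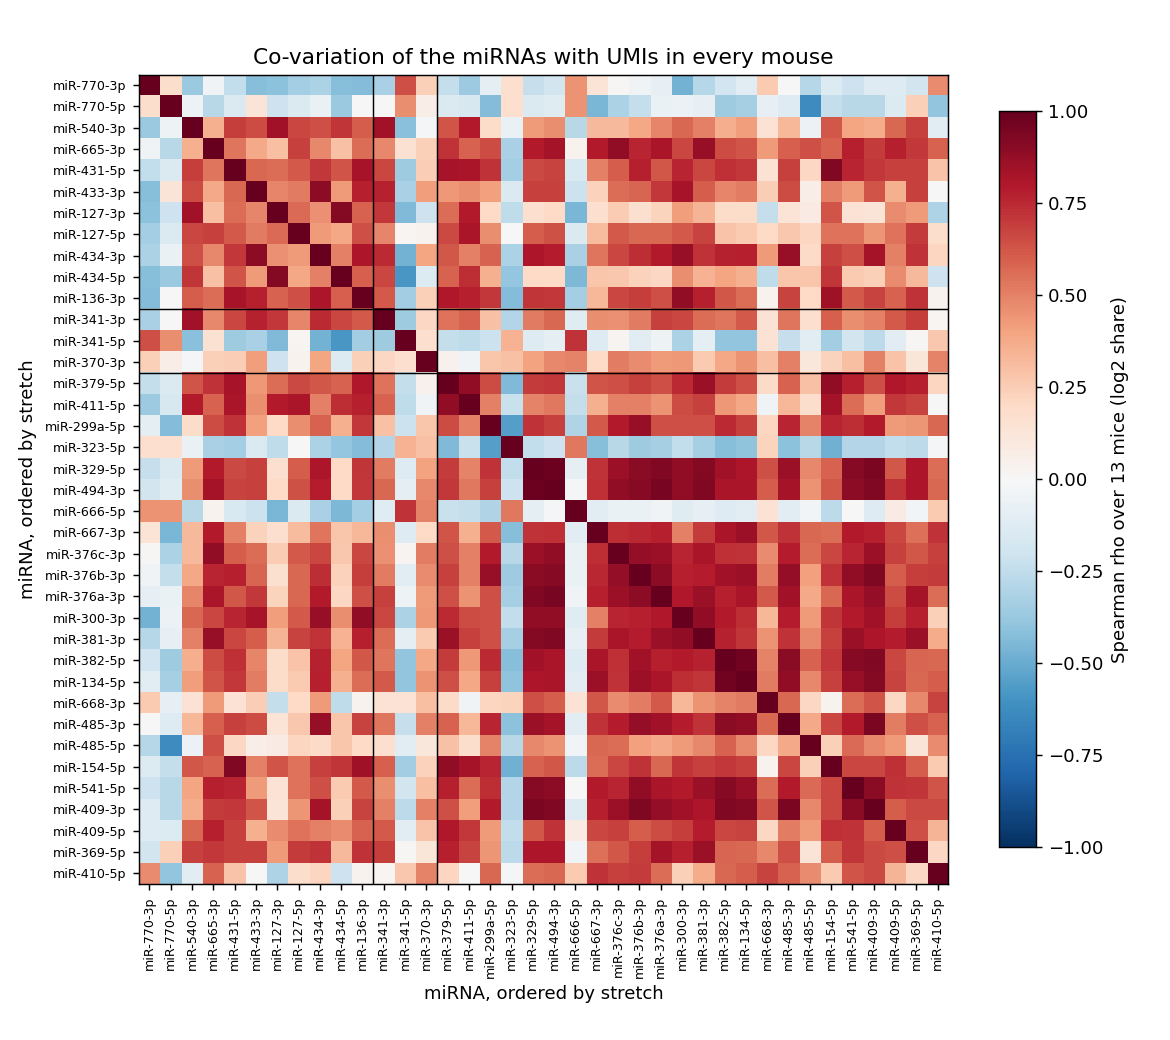
Spearman rho between log2 shares of each pair of the 38 members with UMIs in all 13 mice, ordered by stretch (black lines part the stretches; colour scale from -1 to 1). The Mirg stretch forms the darkest red block (median rho 0.65), and miR-770-3p, miR-770-5p, miR-341-5p, miR-323-5p and miR-666-5p form pale or blue lines.

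Of the miRNAs outside the list, those most alike to the summed domain across the 13 mice were miR-3071-3p, let-7f-2-3p, miR-592-5p, miR-3062-5p and miR-3095-3p (Spearman rho 0.83, 0.77, 0.74, 0.74 and 0.74). Within the 8 HCC mice the values were lower, 0.57, 0.52, 0.36, 0.17 and 0.31. Within the 5 non-HCC mice they were 0.3, 0, 0.1, 0.9 and 0.9. How far the values over 13 mice follow the difference between the groups was not tested. The hairpin of miR-3071 lies inside the domain, on the minus strand opposite miR-136, and it was not part of the rule. Its 3p arm had 0 to 43 UMIs in HCC and 0 to 12 in non-HCC mice.

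Other marker lists moved between the groups as well, and their part in the results above was not tested. The muscle list (5 miRNAs, among them miR-1a-3p, miR-133a-3p and miR-206-3p) summed to 383 to 14652 CPM in HCC and 737 to 3684 in non-HCC mice, with only HCC mouse 4 above the non-HCC mice. The neuron and brain list (10 miRNAs) summed to 862 to 2712 CPM in HCC and 1714 to 2863 in non-HCC mice, with HCC mice 2 and 5 lowest (902 and 862), where the domain was highest. Most of that sum was miR-128-3p, with 9836 to 34175 UMIs. The other members were mixed in these mice. MiR-137-3p had 1070 and 1225 UMIs in HCC mice 2 and 5 and 41 to 110 in non-HCC mice, and miR-219a-5p 242 and 259 against 82 to 148. MiR-218-5p was lower there, with 137 and 181 UMIs against 184 to 460. MiR-9-5p, miR-9-3p, miR-138-5p and miR-129-5p lay within the range of the non-HCC mice. Of the defining members of the list miR-124-3p was at 0 to 27 UMIs and miR-153-3p was at 0 in 11 of 13 mice. The pancreatic islet and pituitary list (5 miRNAs) gave 886 to 1367 CPM in HCC and 1345 to 1860 in non-HCC mice. The platelet and leukocyte list (5 miRNAs) gave 12295 to 32527 and 27533 to 49044, and the red cell list (6 miRNAs) 66890 to 394686 and 365060 to 389444. Other imprinted miRNAs, those of H19, Igf2, Mest and the Nespas region (10 miRNAs), summed to 108 to 857 CPM in HCC and 67.6 to 126 in non-HCC mice, with 6 of 8 HCC mice above every non-HCC mouse. HCC mice 1 and 6 were highest in that list (857 and 855), where the Dlk1-Dio3 share was among the lower ones of the HCC mice.

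In the 53 F2 libraries the domain was listed with 99 of 1885 miRNAs, all 94 of the C3H table among them. These libraries were shallower, with 205194 to 3020311 miRNA UMIs and a median of 846338. The domain took 350 to 9355 CPM, with a median of 1426. The next highest library after the one at 9355 was at 6078. The Mirg stretch made up 52.1 to 76.6% of the domain with a median of 64.7%, a range that covers both C3H groups. In every library 5 members had UMIs, miR-434-3p, miR-379-5p, miR-541-5p, miR-370-3p and miR-127-3p. MiR-376b-3p had UMIs in 24 of 53 libraries, with a median of 0 and a highest value of 383, and at this depth a level like that of the C3H non-HCC mice would be listed at 0 in most libraries. MiR-370-3p, from the Rian stretch, made up a median of 3.41% of the domain in F2 libraries and a mean of 0.669% in C3H mice. The tables were made separately and from blood drawn at different sites, so no test was made between them.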

How the data were processed

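Small RNA was sequenced from plasma of 8 HCC and 5 non-HCC C3H mice and in 53 libraries of F2 mice. The authors deposited 1 table of UMI counts per miRNA for each strain, made from reads placed on GRCm38 and named after miRBase, not normalized and with both spike-ins included. The submitters' processing notes name FastQC and Bowtie2. Columns were matched to C3H mice by the mouse number in the labels, and 0 columns of per-sample values were left unused. The F2 columns carry names that match the group only.

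The counts were compared with edgeR 4.0.16 (glmQLFit and glmQLFTest, R 4.3.3), with the mean of UniSP2 and UniSP4 as library scale, as in the study's normalization, a filter of at least 5 UMIs in at least 5 mice, and Benjamini-Hochberg adjustment over all miRNAs tested. The SE is the size of the log2 fold change over the square root of F. For single levels 1 UMI was added before log2, and exact two-sided permutation ran over all 1287 splits of the mice (smallest p 0.000777), with Benjamini-Hochberg adjustment where stated. Alternatives were TMM, UniSP2, UniSP4 and total UMI scales, limma 3.58.1 with pseudocounts of 1 and 10, and DESeq2 1.42.0 with its default replacement of outlying counts. Further alternatives were other filters, each mouse left out and a block for the replicate number. Summing similar pairs and leaving out HCC mice 2 and 5 were added after seeing the data. The edgeR and arm-ratio tests were tested on simulated data. On the independence of the C3H libraries, the labels say only that the mice are separate animals. Although each C3H library held 9513136 UMIs or more, many members had few UMIs, so both counting error and the spread between mice limit their precision.

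The domain, the lists and the tests were chosen with earlier results of these data known, while the membership of the domain follows from the miRNA names. The miRNAs named follow a rule. They are members past the threshold, the 6 members with the highest mean share, the other arm of each, hairpins whose arm ratio passed, a set of well-known members, and the 5 miRNAs most alike to the domain. MiR-410-3p was not analysed here in C3H mice.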

Additional observations from a re-analysis of the deposited data

Results flagged for a closer look

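In 8 of 76 groups of values searched, a single mouse stood far from the rest of its group by Dixon's criterion, where chance alone gives about 1 in 20, or 3.8. Values are log2 levels on the spike-in scale. For miR-770-5p non-HCC mouse 5 was high, at 8.24 with the next at 7.35. In the rarer arms the distance was mostly that between an entry of 0 and an entry of 10 or more UMIs. For miR-379-3p non-HCC mouse 2 was at 4.05 (23 UMIs) and the other non-HCC mice were listed at 0. For miR-494-5p non-HCC mouse 1 was at 2.85 (10 UMIs), and for miR-377-5p non-HCC mouse 2 was at 3.05 (11 UMIs), with the other non-HCC mice listed at 0. For miR-376a-5p HCC mouse 4 was at 5.66 (39 UMIs) and non-HCC mouse 4 at 3.14 (10 UMIs), with every other mouse listed at 0. For miR-376b-5p non-HCC mouse 3 was low at -0.41 (listed at 0) with the next at 4.03, and for miR-134-3p non-HCC mouse 4 was low at -0.32 (listed at 0) with the next at 3.05. The member calls do not include any of these 7 miRNAs.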

How the results depend on the processing

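The count of members called higher moved with the test, the scale and single mice, and the direction of the 10 called members was higher in HCC mice in each of their alternatives. From 10 members called higher, limma gave 2 with a pseudocount of 1 and 1 with 10, beside 54 and 43 of all 1452 miRNAs. DESeq2 with spike-in size factors gave 18, with miR-377-3p among them, beside 181. Similar pairs summed gave 4 of 69 by TMM and 6 by total UMIs, beside 91 and 96 of all 1401. HCC mice 2 and 5 left out gave 1 of 68 by spike-ins and 4 by TMM, beside 48 and 100 of all 1423. By limma, with pairs summed by TMM and without HCC mice 2 and 5, members were called less often than all miRNAs. Leaving out 1 mouse gave 1 to 17 members, beside 44 to 157 of all miRNAs. The count was 1 of 70 without HCC mouse 2 and 2 of 70 without HCC mouse 5, beside 65 of all 1440 and 73 of all 1434. Without non-HCC mouse 1, 2 or 3 it was 2, beside 44 of all 1406, 47 of all 1405 and 47 of all 1427. Without non-HCC mouse 4 or 5 it was 3, beside 53 of all 1442 and 81 of all 1429. In these fits too, except the one without non-HCC mouse 4, members were called less often than all miRNAs. The count was 16, 16 and 17 without HCC mice 3, 7 and 8. In 1 setting, TMM without HCC mice 2 and 5, 1 member was called lower where the main comparison called 0. The median log2 fold change of the members, 1.89 in the main fit, fell to 0.82 by TMM, 0.90 by total UMIs and 0.86 with DESeq2's own size factors. Without HCC mice 2 and 5 it was 0.58, and 0.37 by TMM. Only these last moves were larger than the SD between mice of the median member log2 level, 1.15. That SD describes levels and is not the error of a median fold change.

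Over all miRNAs 109 higher became 54 and 43 with limma, 173 and 181 with DESeq2 by its own and by spike-in size factors, 48 without HCC mice 2 and 5, and 44 to 157 with 1 mouse left out. In place of 0 lower there were 32 by TMM, 1 by UniSP4, 32 by total UMIs, 49 and 2 with DESeq2, 8 and 12 with similar pairs summed by TMM and total UMIs, and 5 without HCC mice 2 and 5, or 51 by TMM. Of 2 hairpins with a changed arm ratio 0 remained tested at 20 UMIs of both arms in every mouse, 0 passed with similar pairs summed, and 1 to 2 passed with 1 mouse left out, where miR-409 was lost without non-HCC mouse 1, 2 or 5.

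The replicate numbers of the labels do not pair the mice, since deviations of mice with the same number correlated at 0.07, -0.11, 0.04, -0.19 and 0.06. With the number as a replicate block in the 5 numbers that both groups have, 18 of 65 members were called, beside 146 of all 1252 miRNAs. In the same mice without the block 29 members were called, beside 165 of all. For arm ratios the paired permutation has 32 splits and cannot pass, and it gave 0.

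Members that had not passed changed sign in some settings. MiR-770-3p was at -0.29 with DESeq2. MiR-770-5p was at -0.26 by TMM, -0.15 by total UMIs, -0.21 with DESeq2, -0.21 and -0.11 with pairs summed (TMM, total UMIs), and -0.18 and -0.23 without HCC mice 2 and 5 (spike-ins, TMM). MiR-127-3p was at -0.16 by total UMIs, -0.10 and -0.065 with limma, -0.051 and -0.28 with pairs summed (TMM, total UMIs), and -1.03 and -1.34 without HCC mice 2 and 5. Without these mice miR-434-5p was at -0.33 and -0.59, miR-411-5p at -0.34 and -0.48, miR-376b-5p at -0.26 and -0.59, and by TMM miR-127-5p at -0.13, miR-341-3p at -0.058 and miR-409-5p at -0.023. With DESeq2 by spike-ins miR-434-5p was at -0.25 and miR-411-5p at -0.28, near their edgeR values without these mice on the same scale. MiR-134-3p was at -0.16 by TMM, -0.10 with DESeq2, -1.12 with the replicate block, -0.28 in the same mice unpaired and -0.021 with pairs summed by TMM, and between -0.29 and 0.30 with 1 mouse left out. The cause of these shifts was not tested. The depth limits members under 10 UMIs, which are listed at 0.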

Other observations

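The 23 members with UMIs in fewer than 5 mice reached at most 39 UMIs, for miR-376a-5p in HCC mouse 4, and 13 of them had UMIs in HCC mice and were listed at 0 in every non-HCC mouse, beside 52.1% of all such miRNAs (195 of 374). With 8 HCC and 5 non-HCC mice a rare miRNA is more often met in HCC mice alone. MiR-495-3p and miR-412-5p had UMIs in 4 HCC mice each. Another 3, miR-1197-5p, miR-758-5p and miR-668-5p, had UMIs in non-HCC mice only. The F2 table lists 5 members that the C3H table does not, all of the Mirg stretch, among them miR-410-3p, with UMIs in 27 of 53 libraries.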
